A study of Mus musculus with 5 samples.

Results

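Collagen chains are the proteins that wind around each other into the helices of tissue collagens. Their transcripts were followed here in single-cell RNA profiles of a mouse pancreas and of pancreatic tumours from genetically engineered mice. The members are all genes whose symbol is Col, a number, the letter a and a number, with at least 20 UMIs (unique molecular identifiers, 1 per captured transcript) over the 5 libraries. Among the 27998 genes counted, 44 have such a symbol and 33 reached the minimum, 10 fibrillar, 8 basement membrane and 15 minor chains. Together they held 153816 UMIs. Just inside the minimum were Col8a2 with 27 UMIs and Col20a1 with 37, and just outside it were Col26a1 and Col28a1 with 13 each; the 11 genes left out had 0 to 13 UMIs.

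The libraries came from untreated mice, with 1 library per group. Mice were aged 60 days for late KIC, 6 months for late KPC, 60 days for late KPfC, 40 days for early KIC and 60 days for normal pancreas. Late KPfC is on C57BL/6, and the other 4 groups are on a mixed background of C57BL/6 and FVB. KIC, KPC and KPfC are the names of the tumour models; the labels give these names alone, and neither the alleles nor the Cre driver. The design text speaks of 1 mouse per library. Late KIC held 344 cells with Xist and no Y-linked UMI beside 272 with Y-linked UMIs and no Xist, and normal pancreas held 658 beside 123, whereas late KPC had 737 and 0, late KPfC 0 and 1734 and early KIC 2925 and 1.

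Fibrillar collagens (types I, III and V above all) form the ropes that give a tissue its tensile strength and are laid down by fibroblasts in the dense stroma of pancreatic cancer. Type IV collagen forms the sheet-like network of basement membranes under epithelia and around vessels and is joined there by types XV and XVIII. The minor chains make beaded filaments (type VI), anchor the basement membrane (type VII), decorate the surface of fibrils (types IX, XII, XIV, XVI and XX) or span the cell membrane (types XIII and XXIII).

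Several chain genes are neighbours in the mouse genome. Col3a1 (chr1:45311538-45349706, plus strand) lies beside Col5a2 (chr1:45374321-45503282, minus strand), and 3 pairs of type IV genes are transcribed away from a common stretch: Col4a1 with Col4a2, Col4a4 with Col4a3, and Col4a6 with Col4a5. The stretches before the starts of the chains with the most UMIs and between the starts of type IV pairs are shown because the paired chains are compared below. Sequences are from the RefSeq promoter table of build GRCm38.p6, which has an entry for 27 of the 33 members, written 5′ to 3′ on the plus strand, with matches of the searched motifs in capitals. They cover chr6:4505370-4505492 (the longest stretch free of GENCODE exons in the 250 bases before the Col1a2 RefSeq start), chr1:45311288-45311537 (the 250 bases before Col3a1), chr8:11312805-11312826 (where the first exons of Col4a1 and Col4a2 overlap) and chr1:82586850-82586920 (between Col4a4 and Col4a3).
Col1a2 upstream: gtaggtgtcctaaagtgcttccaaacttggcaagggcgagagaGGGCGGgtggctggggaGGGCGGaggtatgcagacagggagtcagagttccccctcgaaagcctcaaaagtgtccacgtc
Col3a1 upstream: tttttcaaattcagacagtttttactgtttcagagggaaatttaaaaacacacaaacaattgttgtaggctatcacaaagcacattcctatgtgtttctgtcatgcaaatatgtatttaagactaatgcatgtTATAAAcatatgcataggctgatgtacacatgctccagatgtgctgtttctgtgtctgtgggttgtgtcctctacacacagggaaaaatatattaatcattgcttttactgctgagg
Col4a1 and Col4a2 start overlap: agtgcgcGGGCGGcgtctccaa
Col4a4 and Col4a3 spacer: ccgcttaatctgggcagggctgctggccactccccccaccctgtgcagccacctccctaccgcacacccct
The motifs searched on both strands were the CCAAT box, the TATA box read as TATAAA, and the GC box read as GGGCGG; no match overlaps another. The Col1a2 stretch has 2 matches of GGGCGG, a motif found in 13.3% of 32851 promoter windows over the same 123 bases. The Col3a1 stretch has 1 match of TATAAA, found in 12.4% of windows over the same 250 bases. The 22 bases shared by Col4a1 and Col4a2 have 1 match of GGGCGG, found in 4.09% of windows over the same bases. The 71 bases between Col4a4 and Col4a3 have no match of the 3 motifs. The Col4a6 and Col4a5 starts lie 1308 bases apart and that stretch is not shown.

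After filtering, 836 cells were kept in late KIC, 1034 in late KPC, 2933 in late KPfC, 3529 in early KIC and 2386 in normal pancreas, with 2923745 to 25885026 UMIs per library and median depths of 1776 to 9331.5 UMIs per cell. The kept cells included 52 with a barcode that occurs in more than 1 library. Cells were clustered with the collagen genes left out, so that the compartments do not rest on the members, and clusters were named by marker transcripts. Fibroblast-like cells numbered 49, 53, 22, 1351 and 397 in late KIC, late KPC, late KPfC, early KIC and normal pancreas. Mesothelial-like cells numbered 36, 52, 160, 38 and 45 and were named by markers of the lining of the abdominal cavity and organ surfaces. By the sums given below, their fibroblast markers stood above their mesothelial markers in every library save late KIC. They are therefore not shown to be lining cells alone. Endothelial-like cells numbered 5, 21, 5, 191 and 6, and epithelial or tumour-like cells 281, 62, 492, 356 and 9. All 14 fibroblast markers were detected in the fibroblast-like cells of every library, at a summed level of 12840, 11810, 12550, 28410 and 50700 CPM (the UMIs of a gene in a class of cells, scaled to the same total of UMIs in every class and library).

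Fibroblast-like cells held most collagen UMIs in late KIC, early KIC and normal pancreas, about as many as mesothelial-like cells in late KPC, and fewer than mesothelial-like cells in late KPfC. They carried 70.55% of the collagen UMIs of late KIC, 45.98% in late KPC, 31.07% in late KPfC, 90.58% in early KIC and 91.43% in normal pancreas. Mesothelial-like cells carried 15.09%, 45.55%, 52.37%, 1.025% and 5.608% in the same libraries. Epithelial or tumour-like cells carried 12.84% in late KIC, 1.854% in late KPC and 9.742% in late KPfC. The families differed in this. Of the basement membrane UMIs, epithelial or tumour-like cells held 61.96% in late KIC and 54.1% in late KPfC but 7.776% in late KPC, 3.217% in early KIC and 0.2309% in normal pancreas. In the first 2 of these libraries most of this was 1 chain, Col18a1, with 1638 of 2199 UMIs in late KIC and 1246 of 1814 in late KPfC. Of Col4a1, epithelial or tumour-like cells held 314 UMIs in late KIC, against 430 in fibroblast-like cells, and 304 against 83 in late KPfC. Endothelial-like cells held 32.81% of the basement membrane UMIs of late KPC, beside 30.26% in fibroblast-like and 26.12% in mesothelial-like cells. Their share was 3.325% in late KIC, 1.998% in late KPfC, 12.99% in early KIC and 1.79% in normal pancreas. Of the fibrillar UMIs, epithelial or tumour-like cells held 4.299% in late KIC and 3.663% in late KPfC. A share mixes the number of cells captured with the level per cell, and capture cannot be told apart from tissue composition here.

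**Figure D1:**
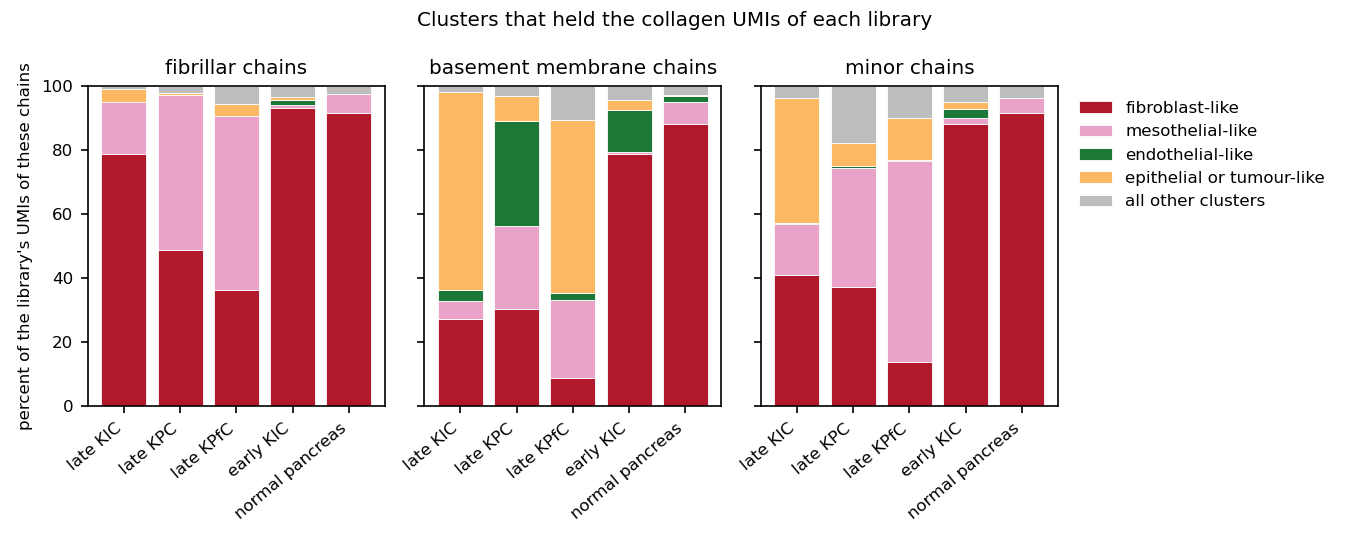
Percent of each library's UMIs of fibrillar, basement membrane and minor chains (left to right) that lay in 5 sets of clusters, 1 stacked bar per library. Fibroblast-like cells held 93.09% of fibrillar UMIs in early KIC and 91.72% in normal pancreas, against 78.75% in late KIC, 48.63% in late KPC and 36.2% in late KPfC, where mesothelial-like cells held 54.52%.

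In fibroblast-like cells the main fibrillar chains stood highest in the late tumours, between in early KIC and lowest in normal pancreas. Col1a1, the chain present 2 times in each type I molecule, had 6619 CPM in late KIC, 7293 CPM in late KPC, 6428 CPM in late KPfC, 2504 CPM in early KIC and 977 CPM in normal pancreas. Col1a2, its partner chain, had 6378, 7910, 6916, 2949 and 1631 CPM in these libraries. The 3 late tumours lay above early KIC for both chains, and early KIC lay above normal pancreas. Col3a1, the only chain of type III collagen, had 13740 CPM in late KIC, 7553 CPM in late KPC, 16230 CPM in late KPfC, 6840 CPM in early KIC and 3715 CPM in normal pancreas. Late KPC stood apart here, close to early KIC and well under the other late tumours. With each cell thinned to 1000 UMIs, Col1a1 was found in 91.8% of fibroblast-like cells of late KIC, 89.1% in late KPC, 90.9% in late KPfC, 75.6% in early KIC and 58.4% in normal pancreas (100%, 86.8%, 100%, 87.7% and 96% unthinned, median depths 15003, 2080, 13860.5, 1724 and 5139 UMIs). In T or NK-like cells, which should lack it, the share was 0% to 2.78% (median depths 912 to 8035). UMIs count captured transcripts once whatever their length, and capture differs between genes, so that levels of different genes are not strictly comparable.

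The type V chains, which join type I in fibrils and limit their width, followed the same order for a pair of the 3 genes. Col5a1 had 688.7, 1051, 790, 347.9 and 155.1 CPM in late KIC, late KPC, late KPfC, early KIC and normal pancreas. Col5a2 had 731.7, 1002, 717.9, 377.8 and 264 CPM. Col5a3 did not share that order, with 107.4, 42.04, 229.5, 210.9 and 121.6 CPM. Col27a1, a fibrillar chain best known from cartilage, had 20.29, 14.01, 32.78, 61.71 and 25.46 CPM and was highest in early KIC. Col11a1, a fibrillar chain often measured in tumour stroma, had 91.08 CPM in late KPC from 13 UMIs and 1.194, 3.278, 0.7571 and 0 CPM in late KIC, late KPfC, early KIC and normal pancreas, from at most 2 UMIs each; it was singled out after its values were seen. Col11a2 and Col24a1 had at most 5 UMIs in fibroblast-like cells of any library.

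**Figure D2:**
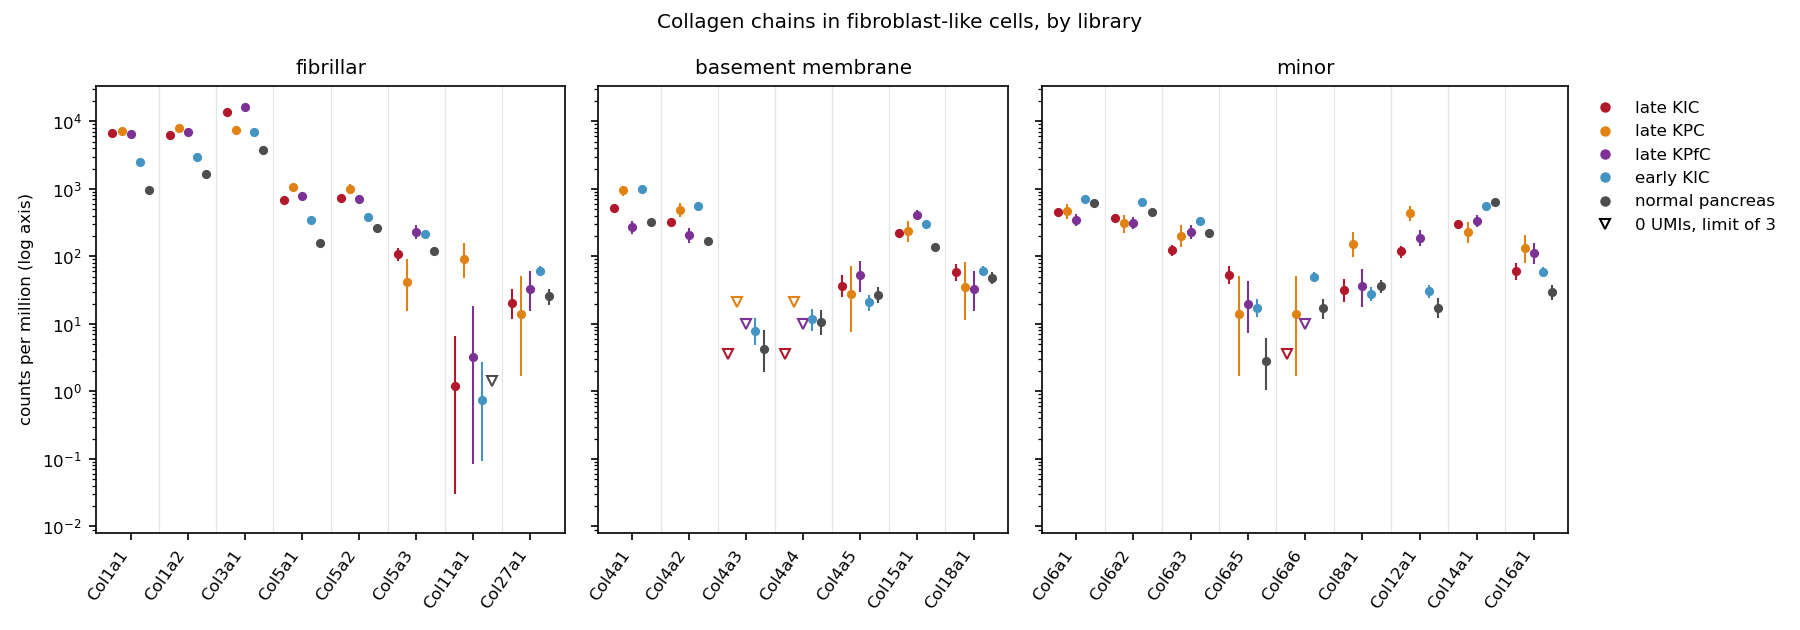
Level of 24 collagen chains in fibroblast-like cells (CPM, log axis) in the 5 libraries, with exact Poisson intervals at 95%; an open triangle marks the level of 3 UMIs where none was counted. Col1a1, Col1a2, Col5a1 and Col5a2 were above early KIC in every late tumour and lowest in normal pancreas, while Col14a1 was highest in normal pancreas.

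Early KIC was compared with normal pancreas in 24 chains with at least 20 UMIs over both libraries. The other 9 members were too low to be compared there. A chain was called at a 2-fold difference in CPM. Chains called higher in early KIC numbered 8 of 24 (8.53% of all genes tested) and chains called lower 0 of 24 (4.48% of all genes), so that the share called higher was above that of all genes. The median log2 ratio was 0.83 over the chains and 0.02 over all genes. Col1a1 was 2.56-fold higher (95% interval 2.44 to 2.69), Col5a1 2.24-fold (1.98 to 2.55), Col27a1 2.42-fold (1.77 to 3.36) and the summed fibrillar chains 1.93-fold (1.89 to 1.97). All ratios compare 1 library with 1 other, no test of the conditions was possible, and the intervals cover counting error only, not the spread between mice.

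Late KIC and normal pancreas could be compared in 22 chains. In late KIC 8 were called higher (9.09% of all genes tested) and 3 lower (19.9% of all genes), with a median log2 ratio of 0.56 over the chains and -0.20 over all genes. Col1a1 was 6.78-fold higher (6.44 to 7.13), Col1a2 3.91-fold (3.75 to 4.08), Col3a1 3.70-fold (3.59 to 3.81), Col5a1 4.44-fold (3.87 to 5.10) and Col5a2 2.77-fold (2.47 to 3.11). Late KPC and normal pancreas shared 21 chains that could be compared, of which 10 were called higher in late KPC (12.7% of all genes tested) and 2 lower (20.4% of all genes). Col1a1 was 7.47-fold higher there (6.92 to 8.05), Col5a1 6.78-fold (5.55 to 8.24) and Col3a1 2.03-fold (1.91 to 2.17), while Col5a3 was called lower on 6 UMIs. These comparisons share the normal pancreas library, so that their likeness is no independent evidence. Fibroblast-like cells of late KPfC were too few (22, under the minimum of 30) for a comparison.

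Within the KIC model, late against early, 23 chains could be compared, and 5 were called higher in late KIC (6.90% of all genes tested) and 5 lower (18.9% of all genes), the lower share being close to that of all genes. Higher were Col1a1 at 2.64-fold (2.55 to 2.74), Col1a2 at 2.16-fold (2.09 to 2.24), Col3a1 at 2.01-fold (1.96 to 2.06), and the minor chains Col12a1 and Col6a5. Lower were Col27a1 by 3.04-fold (1.84 to 5.35), Col6a3 by 2.70-fold (2.20 to 3.35), and Col4a3, Col4a4 and Col6a6, which had 0 UMIs in late KIC. The summed fibrillar chains were 2.13-fold higher (2.09 to 2.16), whereas the summed basement membrane chains stood at 1152 CPM in late KIC and 1966 CPM in early KIC.

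The libraries filled different fibroblast-like clusters. Cluster 12, led by Mfap4, Tagln, Sfrp2, Lox and Acta2 (contractile and matrix genes), held 45 of the 49 cells of late KIC, 46 of 53 in late KPC, 20 of 22 in late KPfC, 139 of 1351 in early KIC and 20 of 397 in normal pancreas. Cluster 1, led by Smoc2 and with Cxcl14 among its top genes, held 691 cells of early KIC and 130 of normal pancreas. Cluster 6, with Cd248 and Ly6c1, held 516 cells of early KIC, and cluster 17, led by Pi16, held 234 of normal pancreas. The levels of type I chains followed the cluster. Col1a1 stood at 6870 CPM in cluster 12 of late KIC, 7643 CPM in that of late KPC and 6685 CPM in that of early KIC, and in the other clusters of early KIC at 2298 CPM (cluster 6) and 1485 CPM (cluster 1).

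When each comparison was repeated inside the single cluster that held at least 30 cells of both libraries, a choice made after seeing the data, the type I difference between late and early KIC was not there. In cluster 12, Col1a1 was 1.03 times as high in late KIC as in early KIC (0.979 to 1.08) and Col1a2 1.07 times. Col5a1 and Col5a2 kept smaller differences, with ratios of 1.58 (1.33 to 1.90) and 1.53 (1.29 to 1.83). Col3a1 kept its difference, with 14150 CPM in late KIC, 7094 CPM in early KIC and a ratio of 1.995 (1.91 to 2.085). Col12a1, 3.90-fold higher over all fibroblast-like cells, had a ratio of 1.12 (0.765 to 1.68) in cluster 12, and Col27a1 was 1.22-fold lower there. Of the main beaded filament chains, Col6a3 was 2.30-fold lower in late KIC (1.73 to 3.06) also in cluster 12, with Col6a1 at a ratio of 0.654 (0.555 to 0.770) and Col6a2 at 0.583 (0.490 to 0.695), both short of the 2-fold line. There 2 of 21 chains were called higher in late KIC (8.43% of all genes in that cluster), Col4a5 and Col6a5, and 3 lower (11.3%), Col6a3, Col6a6 and Col8a1.

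Early KIC against normal pancreas behaved in part the same way. In cluster 1, Col1a1 was 1.36 times as high in early KIC (1.24 to 1.49), Col3a1 1.44 times (1.37 to 1.51) and Col5a1 1.90 times (1.51 to 2.41), all under the 2-fold line, as were Col27a1 at 1.47 times and Col15a1 at 1.21 times. The summed fibrillar chains had a ratio of 1.36 (1.32 to 1.41) in the cluster, against 1.93 over the whole class. Chains called higher there were 2 of 22 (8.14% of all genes in that cluster), Col6a5 and Col6a6, and 2 were called lower (5.09%), Col4a5 and Col12a1. No cluster held 30 fibroblast-like cells of normal pancreas and of late KIC or late KPC, so that for the late tumours the library and the cluster cannot be told apart from these data.

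**Figure D3:**
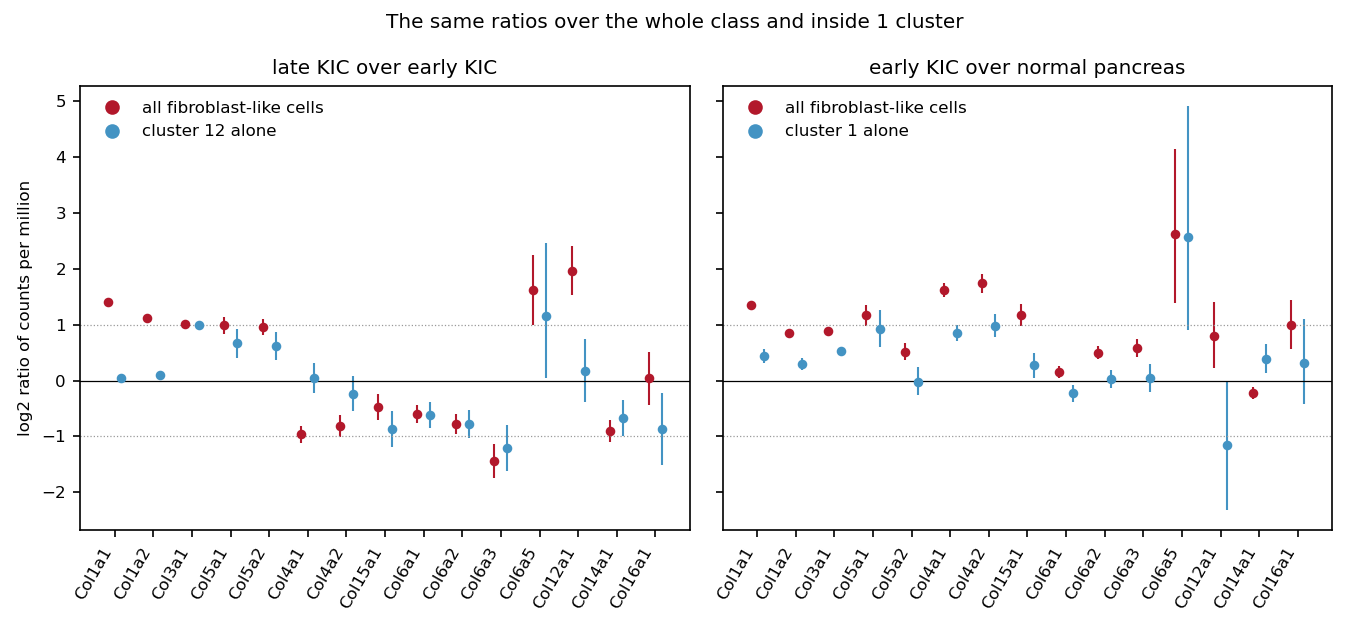
Ratio of CPM on a log2 scale for 15 chains, late KIC over early KIC (left) and early KIC over normal pancreas (right), over all fibroblast-like cells (red) and inside cluster 12 or cluster 1 alone (blue), with exact intervals at 95%; dotted lines mark 2-fold. Col1a1 in late KIC over early KIC lies at 1.40 over all cells and at 0.04 inside cluster 12, whereas Col3a1 lies at the 2-fold line in both.

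Type IV collagen in fibroblast-like cells had another order. Col4a1, which with Col4a2 makes the widespread form of type IV, had 513.3 CPM in late KIC, 945.8 CPM in late KPC, 272.1 CPM in late KPfC, 997.5 CPM in early KIC and 325.3 CPM in normal pancreas. Col4a2 had 319.9, 490.4, 206.5, 561.8 and 168.3 CPM. Early KIC and late KPC were high for both chains, and late KPfC and normal pancreas low. In early KIC against normal pancreas Col4a1 was 3.07-fold higher (2.82 to 3.34) and Col4a2 3.34-fold (2.97 to 3.76), and inside cluster 1 the ratios were 1.80 (1.63 to 1.99) and 1.98 (1.72 to 2.28). Cluster 1 held the highest level, 1541 CPM of Col4a1 in early KIC and 858.1 CPM in normal pancreas, beside 112.9 CPM in cluster 17 of normal pancreas.

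Of the other basement membrane chains, Col15a1, whose product bridges basement membranes to fibrils, had 219.6 CPM in late KIC, 238.2 CPM in late KPC, 409.7 CPM in late KPfC, 304 CPM in early KIC and 135.3 CPM in normal pancreas, and was 2.25-fold higher in early KIC than in normal pancreas (1.96 to 2.58). It was a chain of cluster 1 in normal pancreas, at 398.5 CPM there and 11.43 CPM in cluster 17. Col18a1, the source of the fragment endostatin, varied little in fibroblast-like cells, with 58.49, 35.03, 32.78, 61.33 and 47.61 CPM. Col4a5 had 20.82 to 52.45 CPM over the 5 libraries and Col4a6 at most 3 UMIs. Col4a3 and Col4a4, which assemble together with Col4a5 in the filter of the kidney, had 0 UMIs in the 3 late tumours, 21 and 31 UMIs in early KIC and 9 and 23 in normal pancreas. At the depth of late KIC, the exact Poisson interval of 0 UMIs reaches 4.403 CPM, which is under the 7.95 CPM of Col4a3 and the 11.74 CPM of Col4a4 in early KIC. In late KPfC the interval reached 12.09 CPM and in late KPC 25.84 CPM. Both limits lie above the early KIC levels of both chains, so that no difference was detectable there.

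The minor chains of fibroblast-like cells split into those that were higher and those that were lower in the late tumours. Col12a1, which coats fibrils, had 118.2 CPM in late KIC, 434.4 CPM in late KPC, 186.8 CPM in late KPfC, 30.29 CPM in early KIC and 17.44 CPM in normal pancreas, and was 6.78-fold higher in late KIC (4.60 to 10.2) and 24.9-fold higher in late KPC (16.3 to 38.5) than in normal pancreas. Col14a1, a related fibril-associated chain, ran the other way, with 297.2, 231.2, 334.3, 557.6 and 649.1 CPM, and was 2.18-fold lower in late KIC (1.91 to 2.51) and 2.81-fold lower in late KPC (1.99 to 4.10) than in normal pancreas; thinned to 1000 UMIs per cell, Col14a1 was 1.42-fold lower in late KIC. By cluster, Col14a1 was highest in cluster 17 of normal pancreas (801.5 CPM) and cluster 6 of early KIC (783.5 CPM). Col16a1, another fibril-associated chain, had 60.88, 133.1, 111.4, 59.06 and 29.7 CPM. Col8a1, a short-chain network collagen of vessel walls, had 32.23, 154.1, 36.06, 27.64 and 36.3 CPM and was 4.25-fold higher in late KPC than in normal pancreas (2.52 to 6.89), but 1.64-fold with mesothelial-like and pericyte-like cells added.

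The 3 main chains of type VI, which form microfibrils close to cells, were lower in the late tumours than in early KIC. Col6a1 had 459.6 CPM in late KIC, 462.4 CPM in late KPC, 347.5 CPM in late KPfC, 696.9 CPM in early KIC and 625.6 CPM in normal pancreas. Col6a2 had 374.8, 308.3, 314.7, 643.9 and 456.8 CPM and Col6a3 122.9, 203.2, 232.7, 332.4 and 222.5 CPM. Only Col6a3 in late against early KIC passed the 2-fold line among these 3 chains. Outside the naming rule and singled out after its values were seen, Col6a5, which can stand in for Col6a3, had 53.72, 14.01, 19.67, 17.41 and 2.829 CPM. It was 19.0-fold higher in late KIC than in normal pancreas (8.08 to 54.5), on 45 and 6 UMIs. Col6a6, its near relative, had 0 UMIs in late KIC and 130 in early KIC, at least 13.7-fold lower. The members not named here (Col7a1, Col8a2, Col9a3, Col13a1, Col20a1 and Col23a1) had at most 13 UMIs each in fibroblast-like cells of any library.

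Partner chains did not keep a fixed ratio. In fibroblast-like cells the UMI ratio of Col1a1 to Col1a2 was 1.04 (0.999 to 1.08) in late KIC, 0.922 in late KPC, 0.929 (0.874 to 0.989) in late KPfC, 0.849 (0.821 to 0.877) in early KIC and 0.599 (0.567 to 0.633) in normal pancreas. The 2 chains were thus nearer to parity in every tumour library than in normal pancreas. The ratio of Col5a1 to Col5a2 was 0.941, 1.05, 1.10 and 0.921 in the tumour libraries and 0.588 (0.511 to 0.674) in normal pancreas. The ratio of Col3a1 to Col1a1 was 2.08, 1.04, 2.53, 2.73 and 3.8, lowest in late KPC. The pair Col4a1 and Col4a2, whose first exons overlap in the 22 bases shown above, stayed between 1.32 and 1.93 with overlapping intervals in late KIC (1.37 to 1.88), late KPC (1.44 to 2.61), late KPfC (0.938 to 1.86), early KIC (1.67 to 1.89) and normal pancreas (1.70 to 2.20).

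Collagen chains need hydroxylases, chaperones and cross-linking enzymes to fold and to be built into fibrils. Over these lists, 7 of 18 chaperones and modifying enzymes were called higher in late KIC than in normal pancreas (9.09% of all genes) and 1 lower (19.9%), and 5 of 17 were higher (12.7% of all genes) and 1 lower (20.4%) in late KPC than in normal pancreas. Plod2, a lysyl hydroxylase, had 194.6 CPM in late KIC, 252.2 CPM in late KPC and 59.87 CPM in normal pancreas. Lox, the lysyl oxidase that starts cross-links, had 595.6 CPM in late KIC, 819.7 CPM in late KPC, 159.4 CPM in early KIC and 97.11 CPM in normal pancreas, and was among the genes that led cluster 12. Pcolce2, an enhancer of propeptide cleavage, went the other way with 82.36, 21.02, 219.9 and 714.7 CPM in these libraries, and was among the genes that led cluster 17 of normal pancreas. Of the laminins, nidogens and other basement membrane genes, 7 of 10 were called lower in late KIC than in normal pancreas (19.9% of all genes) and 1 higher (9.09%), and 6 of 10 were lower (20.4% of all genes) and 0 higher (12.7%) in late KPC than in normal pancreas. Among the receptors, Ddr2, a fibrillar collagen receptor, had 114.6 CPM in late KIC, 77.07 CPM in late KPC and 308.8 CPM in normal pancreas.

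Other RNA in the fibroblast-like cells also differed between libraries. The 10 acinar markers, which fibroblasts do not make, summed to 48.94 CPM in late KIC, 0 in late KPC, 124.6 CPM in late KPfC, 26910 CPM in early KIC and 27140 CPM in normal pancreas, with all 10 detected in these last libraries. The 11 mesothelial markers summed to 527.6, 315.3, 409.7, 204 and 186.7 CPM, from 9, 4, 6, 9 and 8 detected markers, with Lrrn4 and Muc16 at 0 in every library. The 14 epithelial markers summed to 180.2, 77.07, 265.5, 212 and 44.31 CPM. The 8 pericyte or smooth muscle markers, at 117, 126.1, 101.6, 62.08 and 36.3 CPM, had the same order of libraries as Col1a1, with 6, 6, 4, 8 and 7 of them detected and Higd1b at 0 in the late tumours. The 10 macrophage markers summed to 170.7, 119.1, 1046, 689.4 and 14.14 CPM, from 9, 7, 10, 10 and 8 detected markers. The 10 endothelial markers summed to 27.45, 21.02, 39.34, 118.9 and 22.63 CPM. The part of these differences in the collagen results was not tested, beyond leaving out acinar secretory and haemoglobin genes from the totals.

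Mesothelial-like cells carried fibrillar chains in every library. Col3a1 had 5567 CPM in late KIC, 4976 CPM in late KPC, 2994 CPM in late KPfC, 1935 CPM in early KIC and 1957 CPM in normal pancreas. Col1a2 had 1634, 2911, 2134, 470.7 and 598.6 CPM, Col1a1 1135, 1750, 966.4, 505.6 and 472.5 CPM, and Col5a2 387, 445.6, 220.3, 113.3 and 147 CPM. The late tumours lay above early KIC and normal pancreas for these 4 chains, and Col1a1 stood below Col1a2 in the late tumours and normal pancreas, with a ratio of 0.453 (0.430 to 0.477) in late KPfC, lower than the 0.929 (0.874 to 0.989) of the fibroblast-like cells of that tumour. Col5a1 had 93.1, 156.2, 92.53, 69.73 and 52.51 CPM. The late tumours and the other libraries filled mostly different mesothelial-like clusters, so that library and cluster cannot be told apart. Cluster 13 held 35, 52 and 160 cells of late KIC, late KPC and late KPfC, with 1 of early KIC and 6 of normal pancreas. Cluster 28 held 37 and 39 cells of early KIC and normal pancreas, with 1 of late KIC. The 11 mesothelial markers of these cells summed to 7532 CPM in late KIC, 2121 CPM in late KPC, 5376 CPM in late KPfC, 12880 CPM in early KIC and 15460 CPM in normal pancreas, all detected save Muc16 in late KPC. The 14 fibroblast markers summed to 5467, 5101, 7692, 17650 and 22220 CPM, the 10 macrophage markers to 199, 321.1, 912.7, 557.9 and 122.5 CPM, and the 10 acinar markers to 36.51, 0, 130, 18370 and 16300 CPM. The part of these differences in the mesothelial-like results was not tested.

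Late KPfC and normal pancreas shared 21 chains that could be compared in mesothelial-like cells. In late KPfC 9 were called higher (12.6% of all genes tested) and 3 lower (14.9% of all genes), with a median log2 ratio of 0.82 over the chains and -0.11 over all genes. Col1a2 was 3.57-fold higher (3.06 to 4.18), Col1a1 2.05-fold (1.72 to 2.45) and Col6a2 2.15-fold (1.57 to 3.04). Col4a1 had 131.4, 350.1, 104.3, 26.15 and 17.5 CPM in late KIC, late KPC, late KPfC, early KIC and normal pancreas and was 5.96-fold higher in late KPfC than in normal pancreas (2.52 to 18.5). Called lower were Col14a1 by 5.09-fold (3.33 to 7.70), Col15a1 by 3.57-fold (2.22 to 5.63) and Col4a6 by 2.68-fold (1.11 to 5.91). Of the 29 UMIs of Col15a1 in normal pancreas only 2 lay in cluster 28, and the others came from the 6 cells of that library in cluster 13. The Col15a1 call therefore rests mostly on these 6 cells. Between late KIC and late KPfC, both mostly in cluster 13, 2 of 22 chains were called higher in late KIC (4.84% of all genes tested) and 3 lower (13.5% of all genes), each on 1 to 18 UMIs in late KIC. The share called lower was close to that of all genes, and the share called higher was not below it.

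Type VI chains and Col18a1 were also found in mesothelial-like cells. Col6a1 had 429, 248.8, 418, 435.8 and 259 CPM and Col6a2 286.6, 202.5, 301.5, 270.2 and 140 CPM. Col6a3 was lower, at 47.46, 92.58, 85.76, 61.02 and 28 CPM. Col6a5 had 65.71, 78.12, 67.26, 139.5 and 80.51 CPM, above the fibroblast-like level of each library, though in late KIC by little and in late KPC against 2 UMIs. Col18a1 had 83.97, 49.19, 123.2, 148.2 and 161 CPM, also above the fibroblast-like values of each library. Col24a1, a fibrillar chain with at most 5 UMIs in the fibroblast-like cells of any library, had 44 UMIs (19.86 CPM) in mesothelial-like cells of late KPfC and 0 in those of early KIC and normal pancreas, where the depth does not allow a 2-fold bound.

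Endothelial-like cells were numerous in early KIC alone (191 cells), where Col4a1 had 1238 CPM and Col4a2 926.4 CPM. Col3a1 had 1110 CPM, in cells where Dcn, the fibroblast proteoglycan decorin, stood at 13.6% of its level in fibroblast-like cells of the library. Relative to the fibroblast-like cells 4 of 24 chains lay over 5 times that of Dcn, and these were Col4a1, Col4a2, Col15a1 (288.4 CPM) and Col13a1, a transmembrane chain with 198.1 CPM from 68 UMIs. In the few endothelial-like cells of the late tumours, Col4a1 had 1710, 2299 and 956.1 CPM in late KIC, late KPC and late KPfC, from 58, 160 and 29 UMIs. Col18a1 had 471.8, 344.8 and 362.7 CPM there, from 16, 24 and 11 UMIs, and 26.22 CPM from 9 UMIs in early KIC. With 5 to 21 cells per late tumour no comparison was made.

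Epithelial or tumour-like cells were low in collagen per cell, with a median of 0.0432% of the UMIs of a cell in late KIC, 0.0273% in late KPC, 0.0296% in late KPfC and 0.0726% in early KIC, against 2.74%, 1.95%, 3.53% and 1.57% in fibroblast-like cells. They belonged to different clusters. Cluster 15, named from mesenchymal tumour markers, held 242 of the 281 cells of late KIC; cluster 4, an epithelial cluster led by Gkn3 and Tff1, held 39 cells of late KIC, 61 of late KPC and 482 of late KPfC; and cluster 10, an epithelial or duct cluster, held 350 cells of early KIC. Col18a1 was the highest chain in late KIC and late KPfC, with 216.2 CPM in late KIC, 57.82 CPM in late KPC, 187.7 CPM in late KPfC and 54.37 CPM in early KIC. It stood 3.98-fold higher in late than in early KIC (2.99 to 5.42) and 3.25-fold lower in late KPC, on 21 UMIs, than in late KPfC (2.11 to 5.26). The summed basement membrane chains of late KPC against late KPfC had log2 ratios of -2.22 to -0.40 in the alternatives run. At Leiden resolution 2, 26 cells of late KPC and 12 of late KPfC lay in a shallow epithelial cluster with ribosomal genes among its top genes. The level of Col18a1 was close in both late KIC clusters, 219.2 CPM in cluster 15 and 178.5 CPM in cluster 4.

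**Figure D4:**
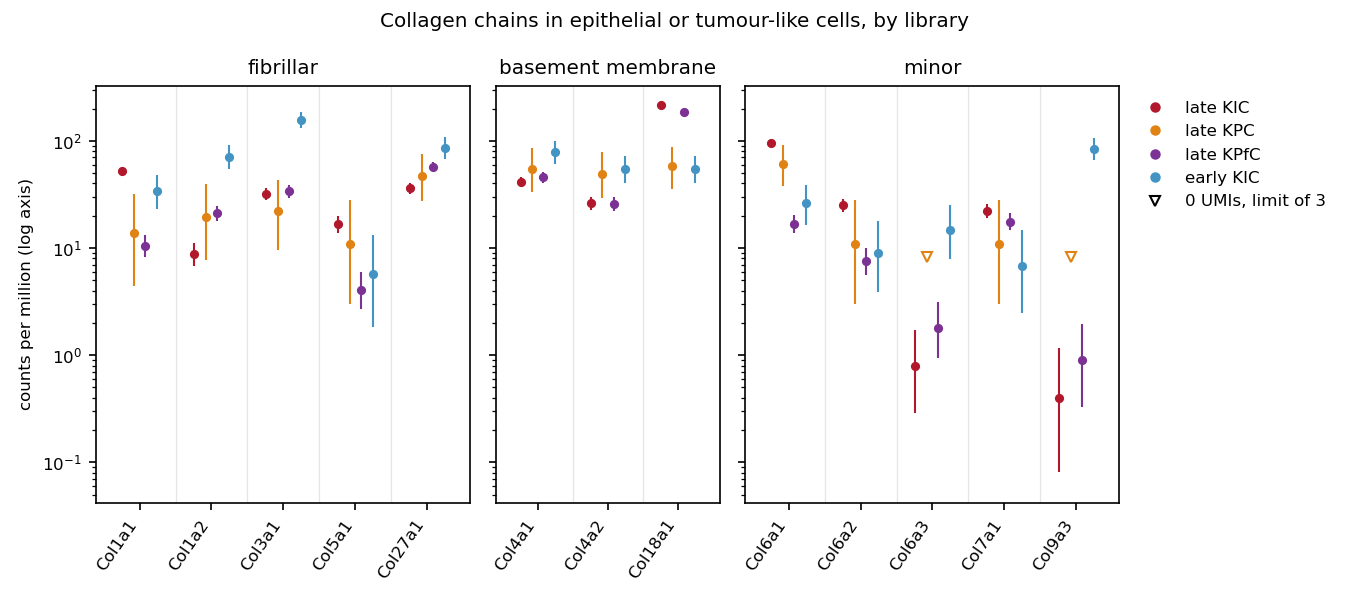
Level of 13 collagen chains in epithelial or tumour-like cells (CPM, log axis) in the 4 tumour libraries, with exact Poisson intervals at 95%; an open triangle marks the level of 3 UMIs where none was counted. Col18a1 is at 216.2 CPM in late KIC and 187.7 CPM in late KPfC, Col1a1 and Col6a1 are highest in late KIC, and Col3a1, Col1a2 and Col9a3 are highest in early KIC.

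Late KIC and early KIC shared 19 chains that could be compared in these cells. In late KIC 6 were called higher (13.5% of all genes tested) and 8 lower (27.4% of all genes), with median log2 ratios of 0.07 over the chains and -0.33 over all genes. Beside Col18a1, Col6a1 was 3.67-fold higher (2.43 to 5.82) and Col7a1, the chain of anchoring fibrils, 3.28-fold (1.48 to 9.07). Without cells that carried markers of a second class the Col7a1 difference was gone, at 0.989 times on 101 cells of late KIC, and with the Xist-only cells of late KIC the ratios were 1.42 for Col7a1 and 1.83 for Col6a1. Col1a2 had 8.844, 19.27, 21.09 and 71.37 CPM in late KIC, late KPC, late KPfC and early KIC, and Col3a1 31.94, 22.03, 33.89 and 157.5 CPM. They were 8.07-fold (5.63 to 11.6) and 4.93-fold (3.97 to 6.10) lower in late than in early KIC. In early KIC these cells also held Dcn, a fibroblast gene, at 192.6 CPM in cluster 10. Relative to the fibroblast-like cells of early KIC, Col1a1 stood there at 1.36%, Col1a2 at 2.42%, Col3a1 at 2.3% and Dcn at 3.1%, whereas Col18a1 stood at 88.7%. Col9a3, a fibril-associated chain best known from cartilage and singled out after its values were seen, had 83.83 CPM from 74 UMIs in early KIC, 0.396 CPM in late KIC and 0.904 CPM in late KPfC, with 5 UMIs in all 1351 fibroblast-like cells of early KIC.

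Between late KIC and late KPfC, 6 of 19 chains were called higher in late KIC (9.43% of all genes tested) and 3 lower (16.2% of all genes). Col6a1 had 95.57, 60.58, 16.87 and 26.05 CPM in late KIC, late KPC, late KPfC and early KIC and was 5.67-fold higher in late KIC than in late KPfC (4.64 to 6.98). Col1a1 had 52.01, 13.77, 10.54 and 33.98 CPM and was 4.93-fold higher (3.82 to 6.46), and Col5a1 was 4.09-fold higher (2.68 to 6.45). Col1a2 was 2.38-fold lower (1.77 to 3.24), but 1.07-fold lower by the mean over cells. With the Xist-only cells of late KIC, Col1a1 was 1.28 times as high as in late KPfC. Cluster 15 held 391 of the 394 Col1a1 UMIs and 722 of the 724 Col6a1 UMIs of late KIC. Inside cluster 4, on 3 and 2 UMIs, both were lower in late KIC than in late KPfC, with log2 ratios of -0.97 and -1.42. In late KIC Col6a3 had 6 UMIs, so that Col6a1 exceeded it 121-fold (55.2 to 330), against 9.33-fold (5.14 to 18.6) in late KPfC and 3.74-fold in the fibroblast-like cells of late KIC.

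The type I ratio of these cells differed between libraries. Col1a1 exceeded Col1a2 by 5.88-fold (4.53 to 7.74) in late KIC, beside ratios of 0.5 (0.370 to 0.671) in late KPfC and 0.476 (0.298 to 0.747) in early KIC. The late KIC value was above that of every fibroblast-like set, and the intervals of the other 2 overlapped that of normal pancreas fibroblast-like cells. They lay under those of the fibroblast-like cells of their own libraries, 0.929 (0.874 to 0.989) in late KPfC and 0.849 (0.821 to 0.877) in early KIC. The late KPfC interval overlapped that of the mesothelial-like cells of that library, 0.453 (0.430 to 0.477). The 281 cells of late KIC fell into 152 with Xist and no Y-linked UMI and 78 with Y-linked UMIs and no Xist, with 20 having both and 31 neither, and most cells of both sets lay in cluster 15 (130 and 72). Col1a1 stood at 112 CPM (99.4 to 126) in the cells with Y-linked UMIs only and 13.5 CPM (10.1 to 17.8) in those with Xist only. Col1a2 ran the other way, with 4.751 and 10.67 CPM. Col1a1 thus had 283 UMIs beside 12 of Col1a2 in the Y-linked set, but 52 beside 41 in the larger Xist set. The order of Col1a1 held for Col6a1, with 150.1 and 47.64 CPM, Col6a2, with 45.53 and 9.111 CPM, and Col7a1, with 39.99 and 9.631 CPM. It did not hold for Col18a1, with 192.8 and 223.6 CPM, or Col4a1, with 39.99 and 42.69 CPM. Median depth was 26730 and 18325.5 UMIs per cell. The split was made after seeing that the library holds both kinds of cells, and whether it pools animals was not tested.

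Late KPC and late KPfC, compared in 18 chains of epithelial or tumour-like cells, had 4 called higher in late KPC (13.0% of all genes tested) and 2 lower (9.85% of all genes). Col6a1 was 3.59-fold higher (2.16 to 5.71) and Col16a1, on 11 UMIs in late KPC, 7.45-fold (3.33 to 15.5). Col4a1 had 41.45, 55.07, 45.79 and 78.16 CPM in late KIC, late KPC, late KPfC and early KIC, Col4a2 26.27, 49.56, 25.9 and 54.37 CPM, and Col27a1 36.17, 46.81, 57.53 and 86.09 CPM. Col6a2 had 25.08, 11.01, 7.53 and 9.062 CPM and Col7a1 22.31, 11.01, 17.62 and 6.797 CPM. Of the enzymes that prepare chains for assembly, 10 of 18 were called higher in late KIC than in late KPfC (9.43% of all genes) and 2 lower (16.2%), among them Plod2 with 24.55 CPM in late KIC and 3.313 CPM in late KPfC. Loxl2, a cross-linking enzyme, had 50.56 CPM in late KIC, 52.32 CPM in late KPC, 7.229 CPM in late KPfC and 11.33 CPM in early KIC.

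Cells outside these compartments, mostly macrophage-like, lymphocyte-like and acinar-like, held 1.185% to 6.572% of the collagen UMIs of a library. The median chain stood there at 0.657%, 0.428%, 0.716%, 3.10% and 0.540% of its level in fibroblast-like cells of late KIC, late KPC, late KPfC, early KIC and normal pancreas. For Dcn the values were 1.01%, 0.621%, 0.873%, 3.11% and 0.461%, near those of the median chain. For Lum, another fibroblast marker, they were 0.153%, 0.561%, 0.211%, 3.2% and 0.65%, well under the median chain in late KIC and late KPfC. Whether chain UMIs at this level are background was not tested. In macrophage-like cells several chains lay over 5 times the relative level of Dcn, and 3 of them were singled out for it, namely Col27a1 in late KIC, late KPfC, early KIC and normal pancreas, Col18a1 in late KIC and late KPfC, and Col14a1 in late KIC and late KPC. Col27a1 stood at 31.4% of its fibroblast-like level in late KPfC, 22.5% in early KIC and 38.6% in normal pancreas, from 146, 21 and 2 UMIs, and had 4.061 CPM from 10 UMIs in late KIC. Col18a1 stood at 4.17% in late KIC and 32.6% in late KPfC, from 6 and 152 UMIs. Dcn was also detected in mesothelial-like cells of every library, so that its level does not stand for RNA of fibroblast-like cells alone. It was also not chosen to follow RNA of tumour-like cells. Col18a1 had 216.2 CPM in tumour-like and 58.49 CPM in fibroblast-like cells of late KIC, and 187.7 and 32.78 CPM in late KPfC. For Col27a1 these values were 36.17 and 20.29 CPM, and 57.53 and 32.78 CPM. The part of free RNA from tumour-like cells in the macrophage-like levels was not tested. Col14a1 had 31.68 CPM in late KIC, 75.03 CPM in late KPC and 9.998 CPM in late KPfC, from 78, 113 and 142 UMIs, where Dcn had 21.93, 11.29 and 29.99 CPM. Relative to fibroblast-like cells this was 10.7%, 32.5% and 2.99% for Col14a1 and 0.441%, 0.292% and 0.654% for Dcn. With each cell thinned to 1000 UMIs, 6.90% of macrophage-like cells of late KPC had a Col14a1 UMI (4.80% to 9.56%; 15.4% unthinned, median depth 2315.5 UMIs) and 0 of 37 T or NK-like cells (up to 9.49%; 0% unthinned, median depth 912), with 42 and 55 shallower cells left out. Col7a1 did so in acinar-like cells, with 22.46 CPM in early KIC and 6.622 CPM in normal pancreas, from 24 and 55 UMIs, beside 1.893 and 0.471 CPM in the fibroblast-like cells of these libraries and 7.811 CPM, from 8 UMIs, in T or NK-like cells of normal pancreas.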

How the data were processed

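UMI counts per gene and barcode were used as deposited by the authors; per the submitters' processing notes they were made with Cell Ranger 2.1.1 and build GRCm38, from a 3′ kit per the labels' protocols. Neither the annotation release nor the strand setting is stated in the labels. Of the members 8 overlap another counted gene, 0 on the same strand. Cells with fewer than 200 genes, fewer than 500 UMIs or over 20% mitochondrial UMIs were left out.

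Counts were processed in Python 3.11.15 (igraph 0.11.9, leidenalg 0.10.2, matplotlib 3.10.9, scikit-learn 1.9.0, pandas 2.3.3, scipy 1.17.1, numpy 2.4.6). The 2000 most variable genes without collagens gave 30 components, 15 neighbours, and Leiden clusters at resolution 1, named by at least 3 raised markers. No doublet caller was run and doublets were not removed. UMIs were summed per class and library and scaled to CPM; levels have exact Poisson, shares Clopper-Pearson and ratios exact binomial intervals at 95%, for counting error only. A comparison needed 30 cells in each library and a call 2-fold on at least 20 UMIs over both; a count of 0 was set to 3, giving a lower bound ("at least"). With 1 library per group nothing was tested. The scripts were checked on simulated counts.

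Values in every library were given for members with at least 200 UMIs in fibroblast-like or mesothelial-like cells. For epithelial or tumour-like cells they were given in the tumour libraries. In endothelial-like cells and in cells outside the compartments only some members were named, and from the other lists only some genes. These and all genes outside the rule were picked after their values were seen. Members and lists were chosen with earlier results of these data known.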

Additional observations from a re-analysis of the deposited data

Results flagged for a closer look

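Col1a2 and Col3a1 were picked out because their difference between late KIC and early KIC had opposite directions in 2 kinds of cells. In fibroblast-like cells Col1a2 was higher in late KIC, with a log2 ratio of 1.11, and in epithelial or tumour-like cells it was lower, at -3.01. For Col3a1 the values were 1.01 and -2.30. The difference between the 2 kinds of cells was not tested, since each group is 1 library. Dcn, which fibroblasts make, stood at 192.6 CPM in the epithelial cluster that holds most of these cells in early KIC and at 21.21 CPM in the mesenchymal tumour cluster of late KIC; its part in the result was not tested.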

How the results depend on the processing

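Of 242 recomputed counts of called chains, 187 stayed within 1.5 times of the reported count and 55 moved, and 7 of 20 recomputed fibroblast-like shares left the 95% counting interval of the reported share. No paired analysis was possible because each group is 1 library, and for the same reason leaving out a replicate was not possible. Chains called are given below, without the number of chains compared or the share of all genes called under each setting. These counts therefore show how the calls moved, and not how they stand beside all genes.

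With each cell thinned to 1000 UMIs, fibroblast-like cells had 5 higher and 1 lower in late KIC against normal pancreas, 6 higher in late KPC against normal pancreas, and 8 higher and 3 lower in late against early KIC. Mesothelial-like cells had 2 higher and 0 lower in late KPfC against normal pancreas and 0 lower in late KIC against late KPfC, and tumour-like cells 2 higher and 4 lower in late against early KIC, 1 and 1 in late KIC against late KPfC and 1 and 1 in late KPC against late KPfC. With a stricter cell filter mesothelial-like late KIC against late KPfC had 1 higher, and fibroblast-like shares of collagen UMIs were 33.08% in late KPfC, 91.35% in early KIC and 92.31% in normal pancreas. At resolution 2, tumour-like late KPC against late KPfC had 7 higher. With each library clustered on its own, fibroblast-like late KPC against normal pancreas had 4 lower and mesothelial-like late KIC against late KPfC 4 higher, with fibroblast-like shares of 58.27% in late KIC, 41.39% in late KPC, 28.43% in late KPfC and 89.17% in early KIC. With means over cells, fibroblast-like late KPC against normal pancreas had 4 lower, tumour-like late KIC against late KPfC 1 lower and late KPC against late KPfC 11 higher.

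With a minimum of 50 UMIs, fibroblast-like cells had 1 lower in late KIC against normal pancreas and 3 lower in late against early KIC, mesothelial-like late KIC against late KPfC 0 higher, and tumour-like late KPC against late KPfC 1 higher. With no minimum, fibroblast-like late against early KIC had 8 higher, mesothelial-like late KPfC against normal pancreas 7 lower, and tumour-like cells 17 lower in late against early KIC, 9 lower in late KIC against late KPfC and 9 higher in late KPC against late KPfC. At 1.5-fold, fibroblast-like cells had 14 higher in early KIC against normal pancreas and 8 higher and 11 lower in late against early KIC, mesothelial-like late KIC against late KPfC 4 higher and 6 lower, and tumour-like cells 5 lower in late KIC and 4 lower in late KPC, both against late KPfC. At 3-fold, fibroblast-like cells had 3 higher in early KIC and 0 lower in late KPC, both against normal pancreas, and 2 higher and 3 lower in late against early KIC, mesothelial-like late KIC against late KPfC 0 higher, and tumour-like late KIC against late KPfC 1 lower.

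Without cells that carried at least 3 markers of a second class, tumour-like cells had 0 lower in late KIC and 1 lower in late KPC, both against late KPfC. With only the Xist-only cells of late KIC, tumour-like cells had 2 higher against early KIC and 2 higher against late KPfC. With mesothelial-like and pericyte-like cells added, fibroblast-like late against early KIC had 3 higher and 10 lower. Inside a shared cluster, chosen after seeing the data, fibroblast-like cells had 2 higher and 2 lower in early KIC against normal pancreas and 2 higher and 3 lower in late against early KIC, and tumour-like cells 2 higher in late KIC and 1 lower in late KPC, both against late KPfC.

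Of 1095 recomputed log2 ratios of single called chains, 5 reversed: Col5a3 in mesothelial-like late KIC against late KPfC (0.49, each library clustered on its own), Col5a3 in tumour-like late KPC against late KPfC (0.75, means over cells), Col7a1 in tumour-like late against early KIC (-0.0155, without cells with second markers), and Col1a1 (-0.97) and Col6a1 (-1.42) in tumour-like late KIC against late KPfC (shared cluster). For thinning and the higher minimum fewer chains reach the limit; otherwise the cause was not tested. The second-marker, sex-linked and shared-cluster alternatives were not run where fewer than 30 cells were left in a library. Without cells that carried markers of a second class, 27 of the 49 fibroblast-like cells of late KIC were left. In early KIC 1272 of 1351 were left and in normal pancreas 393 of 397. Of the mesothelial-like cells, 23 of 36 were left in late KIC, 26 of 160 in late KPfC and 43 of 45 in normal pancreas. The part of such cells in these comparisons and in the shares was not tested. The summed fibrillar chains of fibroblast-like cells kept their direction in the alternatives run, at log2 ratios of 1.67 to 2.26 in late KIC and 1.18 to 2.11 in late KPC against normal pancreas, 0.45 to 1.20 in early KIC against normal pancreas and 0.48 to 1.29 in late against early KIC, and those of tumour-like late KIC (-0.50 to 0.78) and late KPC (-0.69 to 1.83) against late KPfC did not. The fibroblast-like comparisons with late tumours rest on 49 cells in late KIC and 53 in late KPC.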
